A study of Mus musculus with 9 samples.

Results

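Lin28a, Lin28b, Trim71, Mycn, Sall4 and Sall1 are 6 regulators of early development, taken by name from the 22367 protein-coding genes of the annotation on chromosomes 1 to 19, X and Y, and their accessible chromatin was followed while mouse fibroblasts were turned into pluripotent cells. The assay was ATAC-Seq, in which the Tn5 transposase cuts open DNA and the ends of the fragments are sequenced. All cells came from mouse embryonic fibroblasts (MEFs) of embryos that carry an IRES-EGFP reporter behind Oct4, and no strain is named in the sources used here. Reprogramming was started with retroviral pMXs vectors for Oct4, Sox2, Klf4 and c-Myc (OSKM), in a feeder-free medium with serum replacement, LIF, ascorbic acid, bFGF, CHIR99021 and N-2. The time course had 7 libraries, namely D0 (MEFs before OSKM), D3 (unsorted cells 3 days after OSKM), D6T- and D9T- (cells without Thy-1, a fibroblast surface marker, on days 6 and 9), D12S+ and D16S+ (cells with SSEA-1, a marker of pluripotent cells, on days 12 and 16) and iPSCs (fully reprogrammed cells). The other 2 libraries were day 6 cells given OSKM and siRNA before it, D6 siH3.3 against H3f3a and H3f3b, which encode the histone variant H3.3, and D6 siNT as the non-targeting control; their labels give them as Thy-1-, while a supplementary sheet of the study lists no sort. Each condition had 1 library, so no difference has a replicate check and no test between conditions was possible. In bulk libraries, a place open in more of the cells and a place more open in each cell cannot be told apart.

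Lin28a and Lin28b are RNA-binding proteins that hold back the maturation of let-7 microRNAs in embryonic cells, and let-7 in turn represses both of them. Trim71 (also called Lin41) is an RNA-binding ubiquitin ligase and a classical let-7 target, and Mycn is the MYC family member of embryonic and neural progenitor cells. Sall4 is a zinc finger factor of the pluripotency network that binds the NuRD repressor complex, and Sall1 is its relative in embryonic stem cells and organ precursors.

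An accessible region is a set of joined or overlapping peaks of a library, and its level is its highest pileup, scaled to 1000000 total tags (CPM). The pileup counts the tags, each extended to 200 bp, that cover the summit of a peak. The window of a gene ran from 20 kb upstream of its outermost start to 20 kb past its end, and as promoter counted 3 kb before any transcript start. Regions of the 9 libraries that overlapped were joined into places, named here by the distance of the highest summit from the outermost start, positive in the direction of transcription. Within a joined place, the highest summits of different libraries can lie apart, and their regions need not overlap each other. All 6 genes lie on the minus strand of mm9, Lin28a at chr4:133559245-133574756, Lin28b at chr10:45096426-45206201, Trim71 at chr9:114420393-114473487, Mycn at chr12:12942902-12948720, Sall4 at chr2:168573832-168593443 and Sall1 at chr8:91551147-91568061. Intervals in brackets are exact 95% intervals and cover counting error only.

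The libraries held between 13213117 (D9T-) and 31714845 (D0) tags. The weakest pileup called was 7 tags (0.530 CPM) at D9T- and 11 tags (0.347 CPM) at D0, with the other limits from 0.331 to 0.454 CPM. A library with no call is given as below its limit. Libraries also differed in signal per tag: over the 12409 places open in all 9 libraries, the median level was lowest at D0 (0.883 CPM), 1.05 in iPSCs and highest at D6T- (3.41), which against D0 is a shift of 0.26 (log2) in iPSCs and of 1.95 at D6T-. D3 and D16S+ had the same median (1.98). As a share of that median, the limit stood at 39.3% at D0, 38.9% at D9T- and 35.7% in iPSCs, but at 16.7% at D3 and 11.0% at D6T-, so a missing call says less at D0 and D9T- than at D3 or D6T-. Of 10 fibroblast markers, 8 had a promoter region at D0 and 5 in iPSCs (summed level 5.80 and 3.31 CPM), with Col3a1 and Prrx1 without a region in either. Of 10 pluripotent markers, 1 had a region at D0, none at D9T-, 8 at D12S+ and 10 in iPSCs, with summed levels of 0.568 CPM at D0 and 10.8 in iPSCs. Of 3 markers each for keratinocytes, blood and endothelium, 1, 1 and 2 had a region at D0 and the same numbers in iPSCs, while Trp63, Ptprc and Spi1 had none in either, and the part of such cells in the results was not tested.

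The chromatin at the promoters of these genes, taken over any transcript start, was mostly uncalled in MEFs and was called at all 6 genes in SSEA-1+ cells and iPSCs. A promoter region was called for 2 of the 6 genes at D0, where 58.0% of all protein-coding genes had a region. D3 had a region at 4 of them (67.8% of all genes), D6T- at 5 (68.3%) and D9T- at 3 (50.4%). All 6 had one in D12S+ cells (63.0%), D16S+ cells (63.0%) and iPSCs (63.9%). Both siRNA libraries had 2, against 54.3% of all genes in D6 siH3.3 and 54.8% in D6 siNT. In each gene the highest promoter level of the time course lay in an SSEA-1+ library or in iPSCs, at D16S+ in 5 genes and in iPSCs for Lin28b. When levels were taken relative to the places open in all libraries, this held for 5 genes and Lin28a was highest at D0, where its region was another place than in the later cells. The start places themselves were then highest in iPSCs for 5 genes and at D16S+ for Mycn. For Sall4 this is the place at +2.4 kb, while its +0.7 kb place was higher at D16S+ (102%) than in iPSCs (67.9%). For Lin28a the levels were nearly equal, at 66.7% at D16S+ and 67.9% in iPSCs.

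**Figure D1:**
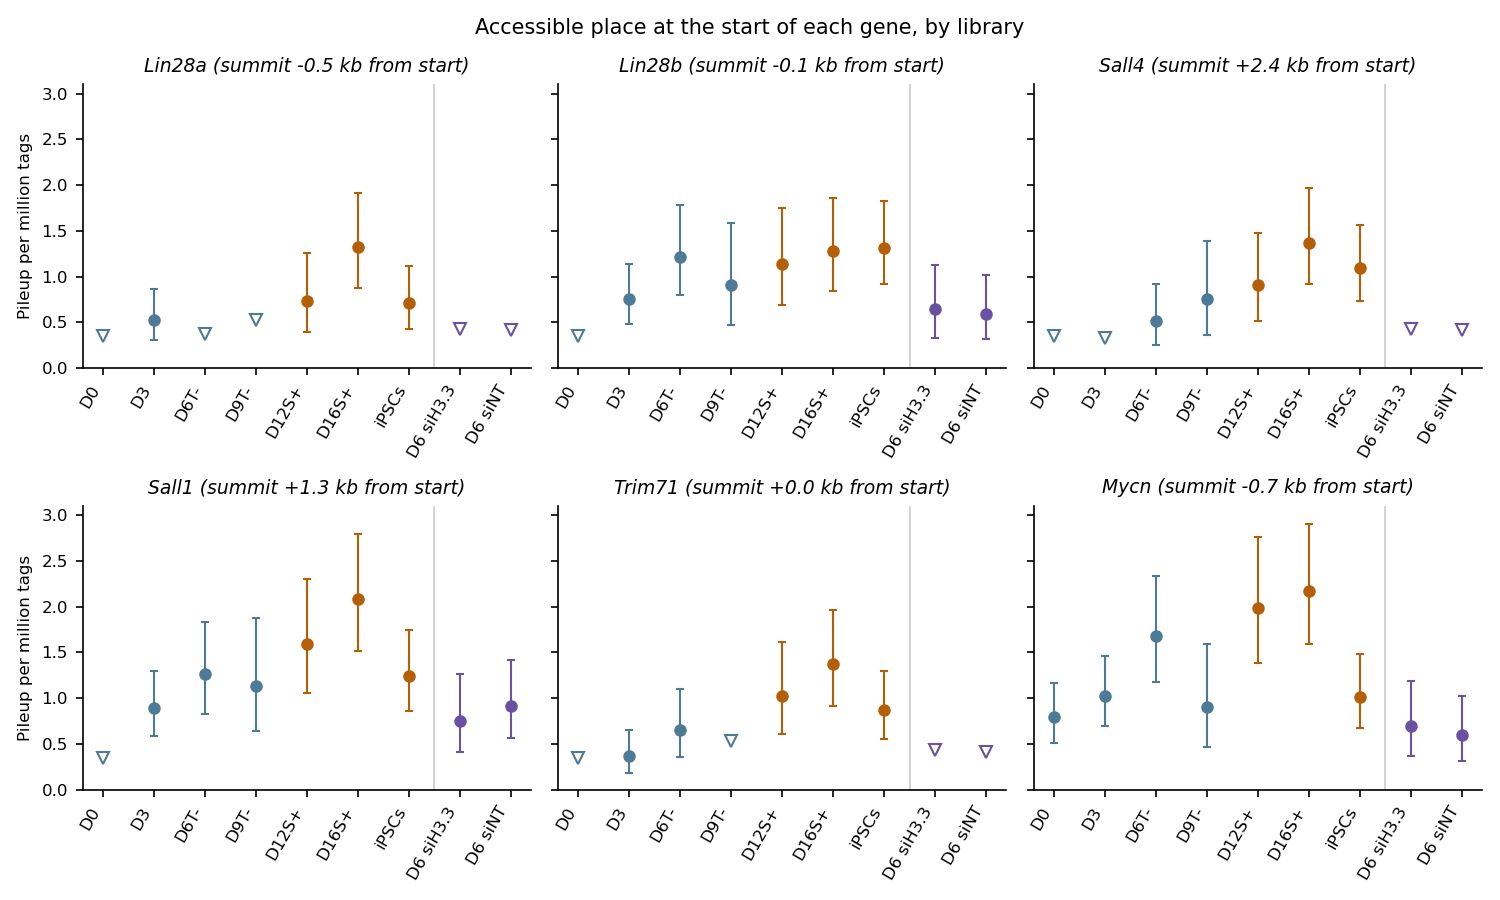
Level of the place at the start of each gene in the 9 libraries, as pileup in CPM, with exact Poisson 95% intervals; of the places that overlap a promoter, the one found in most libraries is plotted. Open triangles stand at the detection limit of a library without a call, blue marks D0 to D9T-, orange the SSEA-1+ libraries and iPSCs, and purple the siRNA libraries. Mycn alone has a call at D0, and all 6 genes have calls in the 3 orange libraries.

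The start of Lin28b was called in every library after D0. Its place at -0.1 kb, which overlaps the 5′ end of the gene, was not called at D0, while D3 cells had 23 tags (0.761 CPM), D6T- cells 26 (1.22) and D9T- cells 12 (0.908). Later, D12S+ cells had 20 tags (1.14 CPM), D16S+ cells 27 (1.28) and iPSCs 35 (1.32, 0.917 to 1.83). The 6 called levels of the time course have overlapping intervals. iPSCs were at least 3.80-fold above the D0 limit. The D3 level was 38.3% of the median of the common places, just under the D0 limit on that scale, so a start as open as at D3 could have been missed at D0. In the body of Lin28b, a place at +88.0 kb in intron 4 was called in the early cells alone. D0 cells had 17 tags there (0.536 CPM), D3 cells 14 (0.463) and D6T- cells 33 (1.54), and the siRNA libraries had 11 (D6 siH3.3) and 16 (D6 siNT). No later library of the time course had a call there, where the limits lay between 0.376 (iPSCs) and 0.530 (D9T-) CPM. A place at +40.0 kb in intron 2 had 15 tags at D6T-, 14 at D16S+ and 19 in iPSCs.

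Lin28a, the paralogue that pluripotent cells are known for, had a start with calls in fewer libraries. At the place at -0.5 kb, D3 cells had 16 tags (0.529 CPM), D12S+ cells 13 (0.738), D16S+ cells 28 (1.32, 0.879 to 1.91) and iPSCs 19 (0.715, 0.430 to 1.12). It was not called at D0, D6T- or D9T-, nor in the siRNA libraries. At D6T- the limit was the lowest of all libraries as a share of the common median (11.0%), while the place stood at 66.7% at D16S+ and 67.9% in iPSCs. D16S+ was 2.50-fold above D3 (1.31 to 4.94), and iPSCs 1.35-fold above D3 (0.658 to 2.81), an interval that includes equal levels. Relative to the common places these ratios were 2.50 and 2.54. Both ratios compare different summits within this joined place, at +105 bp in D3 cells, -545 bp in D16S+ cells and -591 bp in iPSCs. The D3 region and the iPSC region with 19 tags do not overlap. Near the D3 summit, at +96 bp, iPSCs had a separate region with 12 tags (0.451 CPM). The D0 promoter region of Lin28a, with 23 tags (0.725 CPM), lay at -1.9 kb, a place that only D16S+ also had (11 tags). The promoter ratio of iPSCs to D0 of 0.986 (0.508 to 1.89) therefore compares different places; the start place alone was at least 2.06-fold above the D0 limit in iPSCs, or 1.73-fold relative to the common places. The place also overlaps the lincRNA Gm13061. Lin28a had 10 regions in iPSCs and 3 at D0, and 5 of its places were called in iPSCs alone, each with 11 to 19 tags. The strongest region of its window, at +17.9 kb, was called in all 9 libraries (45 tags at D0, 33 in iPSCs) and lies in the promoter of the neighbour Dhdds.

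Letters that pair with the let-7 seed are found in the 3′ UTRs of 4 of the genes. The mature mouse let-7a (RefSeq, GRCm38 table) is shown with its seed, bases 2 to 8, in capitals:
mmu-let-7a-5p: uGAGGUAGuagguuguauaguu
The same seed was shared by 10 of the 11 mature let-7 and miR-98 RNAs listed. Its match CTACCTC, in capitals below, was found in the longest annotated 3′ UTR of Lin28a (2 matches), Lin28b (4), Trim71 (2) and Sall4 (1), and in none of Sall1 or Mycn; 8.80% of 20007 genes with a 3′ UTR held at least 1 match, and 1.01% at least 2. The matches that are followed by an A are shown, on the sense (minus) strand of mm9, since let-7 sites of this form are known to be the more effective ones:
Lin28a, chr4:133561104-133561126: gcacagcctgttgaaCTACCTCa
Lin28a, chr4:133560466-133560488: gagatcgccacaaacCTACCTCa
Lin28b, chr10:45100828-45100850: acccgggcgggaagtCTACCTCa
Trim71, chr9:114421590-114421612: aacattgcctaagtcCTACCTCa
Trim71, chr9:114421494-114421516: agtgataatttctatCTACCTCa
Sall4, chr2:168574440-168574462: agggctttaatttatCTACCTCa
A match is a description of the letters and not a measured site. The UTRs with matches were 1370 (Trim71) to 4445 bases long (Lin28b), against a median of 891 bases over all genes with a 3′ UTR. The shares over all genes were not matched for length. ATAC-Seq does not measure let-7. Of the 8 let-7 genes with an entry in the annotation, 2 (Mirlet7b and Mirlet7i) had a region in the 3 kb before their annotated start at D0. In iPSCs 1 (Mirlet7i) had one. Starts of the primary transcripts were not used. The D0 level of Mirlet7b (0.410 CPM) was close to the iPSC limit (0.376 CPM).

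Trim71 had the most late places of the 6 genes. Its start, at 0.0 kb in the first exon, was not called at D0 or D9T-, while D3 cells had 11 tags (0.364 CPM, 1 tag above the limit) and D6T- cells 14 (0.654). In D12S+ cells it had 18 tags (1.02 CPM), in D16S+ cells 29 (1.37, 0.917 to 1.97) and in iPSCs 23 (0.865, 0.549 to 1.30). D16S+ was 3.76-fold above D3 (1.83 to 8.35) and iPSCs 2.38-fold above D3 (1.11 to 5.40), neither of which includes equal levels. Both ratios compare different summits of overlapping regions, at +593 bp in D3 cells, +48 bp in D16S+ cells and +84 bp in iPSCs. Relative to the common places, iPSCs were 4.48-fold above D3. The place was called in neither siRNA library. The D6T- level was 19.2% of the common median, below the limits of D6 siH3.3 (33.3%) and D6 siNT (34.6%) on that scale. The D3 region began just inside the gene and so did not count as a promoter region. Around Trim71, 7 places were absent at D0 and present at D12S+, D16S+ and in iPSCs, and 0.170% of all protein-coding genes had as many in their windows, which grow with the length of the gene. The place at +22.9 kb, in intron 1, was the strongest of them outside the start. D3 cells had 29 tags (0.959 CPM), D6T- cells 25 (1.17), D12S+ cells 35 (1.99), D16S+ cells 46 (2.17, 1.59 to 2.90) and iPSCs 20 (0.752, 0.460 to 1.16). Another of the 7, at +65.9 kb, lies in the promoter of the neighbour Ccr4 and was highest at D6T- (44 tags, 2.06 CPM).

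A pair of places in intron 1 of Trim71 was called in no library before D12S+ and in neither siRNA library. At +15.0 kb, D12S+ cells had 24 tags (1.36 CPM, 0.873 to 2.03), D16S+ cells 26 (1.23) and iPSCs 20 (0.752). At +30.3 kb, D12S+ cells had 11 tags (0.625 CPM), D16S+ cells 17 (0.803) and iPSCs 28 (1.05, 0.700 to 1.52). The intervals of D12S+ and iPSCs overlap at each place. Relative to the common median, both were highest in iPSCs, at 71.4% for +15.0 kb and 100.0% for +30.3 kb. For +15.0 kb, D16S+ was at least 3.28-fold above the D6T- limit, and 5.65-fold relative to the common places. Above the D0 limit it was at least 3.54-fold, but 1.58-fold relative to the common places. At +30.3 kb, D12S+ was at least 1.80-fold above the D0 limit, but at 0.757 of it relative to the common places. A place as open as in D12S+ cells could there have been missed at D0. For iPSCs over D0 these bounds were 3.04 and 2.55. By contrast, the intron place at +37.1 kb was called in all 9 libraries. D0 cells had 32 tags there (1.01 CPM), D3 cells 59 (1.95), D6T- cells 86 (4.02, 3.22 to 4.97) and D9T- cells 25 (1.89). The later cells had 35 (D12S+, 1.99 CPM), 26 (D16S+, 1.23) and 19 tags (iPSCs, 0.715, 0.430 to 1.12). In CPM it was highest at D6T-, the library with the most signal per tag. As a share of the common median it stood at 114% at D0, 118% at D6T- and 139% at D9T-, and was lower in D16S+ cells (61.9%) and iPSCs (67.9%).

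The start of Sall1 was likewise called in every library after D0. The place at +1.3 kb spans the 5′ end and the first part of the gene and was not called at D0. D3 cells had 27 tags (0.893 CPM), D6T- cells 27 (1.26) and D9T- cells 15 (1.14). Of the later libraries, D12S+ had 28 tags (1.59 CPM), D16S+ 44 (2.08, 1.51 to 2.79) and iPSCs 33 (1.24, 0.855 to 1.74). The siRNA libraries had 14 (D6 siH3.3) and 20 tags (D6 siNT). D16S+ was 2.33-fold above D3 (1.41 to 3.91), and iPSCs were at least 3.58-fold above the D0 limit. The ratio of D16S+ to D3 compares different summits of this joined place, at +1270 bp and +473 bp. In iPSCs the 33 tags lay at +501 bp. Near the D16S+ summit, D3 cells had a separate region with 19 tags (+1249 bp) and iPSCs one with 24 (+1277 bp). The D3 level, as a share of the common median, was above the D0 limit, unlike that of Lin28b. In D9T- and the siRNA libraries the region began inside the gene, and so it did not count as a promoter region, and in iPSCs too the region with 33 tags lay inside the gene. The promoter value of iPSCs, 14 tags (0.527 CPM), therefore belongs to a weaker region at -1.0 kb, and the promoter ratio of at least 1.52 over D0 understates the start place. At -8.9 kb, upstream and in no other annotated gene, a place was called from D12S+ on and in no other library. D12S+ cells had 17 tags (0.965 CPM), D16S+ cells 21 (0.992) and iPSCs 41 (1.54, 1.11 to 2.09), which was at least 4.12-fold above the D6T- limit, or 13.4-fold relative to the common places. Above the D0 limit, iPSCs were at least 4.45-fold, or 3.73-fold relative to the common places. For D16S+ over D0 these bounds were 2.86 and 1.27. Downstream, the place at +28.5 kb was called in all 9 libraries, with 15 tags at D0 (0.473 CPM), 50 at D6T- (2.34, 1.73 to 3.08) and 23 in iPSCs (0.865). Relative to the common median it was 53.6% at D0, 68.5% at D6T-, 139% at D9T- and 82.1% in iPSCs, so that the library with the highest level depends on the scale.

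Sall4 was called at the promoters of internal starts. Its outermost annotated start had no call before iPSCs, in which a region at -1.5 kb had 22 tags. The place at +0.7 kb overlaps coding sequence. D6T- cells had 16 tags there (0.748 CPM), D12S+ cells 29 (1.65, 1.10 to 2.36), D16S+ cells 43 (2.03, 1.47 to 2.74) and iPSCs 19 (0.715, 0.430 to 1.12), and no other library had a call. At +2.4 kb, D6T- cells had 11 tags (0.514 CPM), D9T- cells 10 (0.757), D12S+ cells 16 (0.908), D16S+ cells 29 (1.37) and iPSCs 29 (1.09), again with no other call. In CPM the iPSC level was below that of D16S+ at +0.7 kb, with intervals that do not overlap, while the ratio at +2.4 kb was 0.797 (0.459 to 1.38). Relative to the common places, whose median was also lower in iPSCs, +0.7 kb stood at 102% in D16S+ cells and 67.9% in iPSCs, and at +2.4 kb the direction turned, with 69.0% in D16S+ cells and 104% in iPSCs. At +2.4 kb, D16S+ was at least 4.14-fold above the D3 limit. At D6T- the +0.7 kb place stood at 21.9% of the common median, again under the limits of the siRNA libraries. The lincRNA Gm14261 overlaps the +0.7 kb place. Of the regions in the Sall4 window, 6 of 11 in iPSCs and none at D0 overlapped the promoter of another gene, namely Atp9a or Gm14261.

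Mycn was the 1 gene of the 6 with an open start in every library. At -0.7 kb, D0 cells had 25 tags (0.788 CPM, 0.510 to 1.16), D3 cells 31 (1.03), D6T- cells 36 (1.68) and D9T- cells 12 (0.908). Among the later cells, D12S+ had 35 tags (1.99 CPM), D16S+ 46 (2.17, 1.59 to 2.90) and iPSCs 27 (1.02, 0.669 to 1.48), and each siRNA library had 13. The ratio of iPSCs to D0 was 1.29 (0.720 to 2.31), an interval that includes equal levels. It compares different regions of this joined place, with summits at -779 bp at D0 and -1562 bp in iPSCs, which do not overlap. With promoters from 1 kb upstream to 100 bp downstream, iPSCs had 19 tags and the ratio was 0.907. D16S+ was 2.76-fold above D0 (1.66 to 4.68), but 1.23-fold relative to the common places. A larger difference lay past the end of the gene. A place at +14.6 kb, 8.8 kb past the end and in no annotated gene, was not called at D0, D3 or D9T- and had 9 tags at D6T- (0.421 CPM), 1 tag above the limit. D12S+ cells had 30 tags (1.70 CPM, 1.15 to 2.43), D16S+ cells 39 (1.84, 1.31 to 2.52) and iPSCs 30 (1.13, 0.761 to 1.61). D16S+ was 4.38-fold above D6T- (2.09 to 10.3), or 7.53-fold relative to the common places. Above the D0 limit it was at least 5.31-fold, or 2.36-fold relative to the common places. The +14.6 kb place was called in 4 libraries. Of the places outside promoters in the Mycn window, the one at +2.9 kb in intron 2 was called in the most libraries (5). It ranged from 12 tags at D16S+ to 22 tags in iPSCs and at D3.

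**Figure D2:**
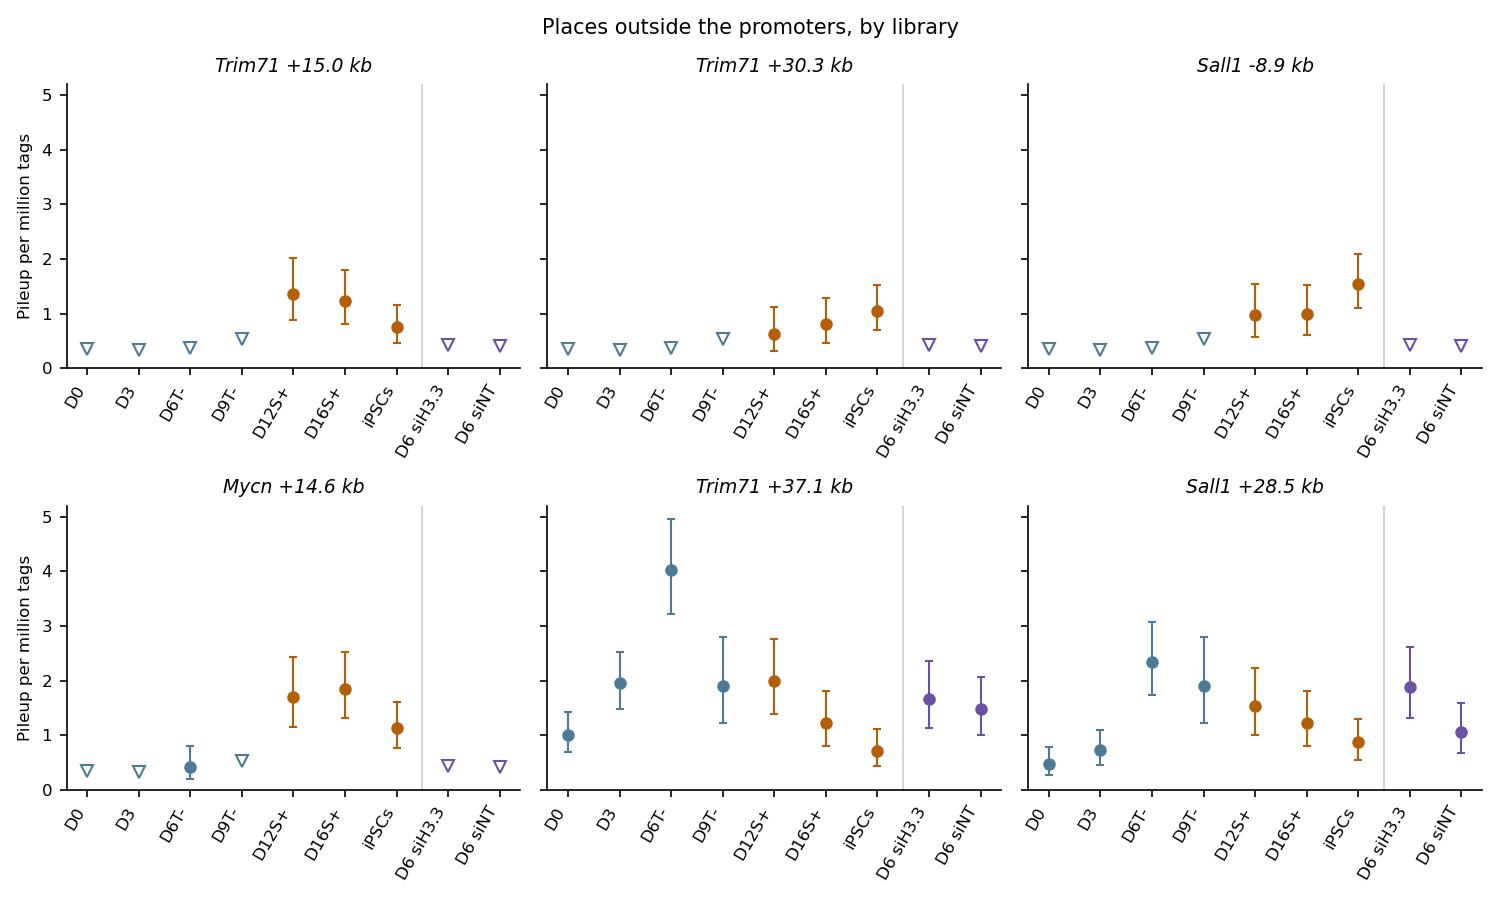
Level of 6 places outside the promoters in the 9 libraries, as pileup in CPM with exact Poisson 95% intervals; titles give the distance of the summit from the outermost start. Open triangles stand at the detection limit of a library without a call, with blue for D0 to D9T-, orange for the late libraries and purple for the siRNA libraries. The 4 late places have at most 1 call before D12S+, and the places at +37.1 kb of Trim71 and +28.5 kb of Sall1 are called throughout and highest at D6T- in CPM, but at D9T- among the time-course libraries when taken relative to the common places (139% in each).

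The sequences of the late places are shown because they carry the contrast between early and late cells, with the place of Trim71 that was called in all libraries for comparison. Each is the 200 bp around the summit of the library with the highest level, read from mm9 on the plus strand. None overlaps an annotated exon. Capitals mark matches, on either strand, to 6 searched motifs, namely ATGCAAAT (POU octamer), AACAATG (SOX), GGGNGTGG (KLF), CACGTG (E-box of MYC and MAX), TGANTCA (AP-1) and AAGGTCA (ESRRB):
Trim71 +15.0 kb, chr9:114458352-114458551: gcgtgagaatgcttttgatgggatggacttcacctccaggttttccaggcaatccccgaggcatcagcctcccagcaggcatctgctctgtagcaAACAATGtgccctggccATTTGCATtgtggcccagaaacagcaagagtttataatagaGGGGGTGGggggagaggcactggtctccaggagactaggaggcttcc
Trim71 +30.3 kb, chr9:114443071-114443270: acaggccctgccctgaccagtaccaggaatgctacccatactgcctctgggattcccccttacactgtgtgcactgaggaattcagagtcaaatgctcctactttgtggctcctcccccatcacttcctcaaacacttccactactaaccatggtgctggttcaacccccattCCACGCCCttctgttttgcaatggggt
Sall1 -8.9 kb, chr8:91576892-91577091: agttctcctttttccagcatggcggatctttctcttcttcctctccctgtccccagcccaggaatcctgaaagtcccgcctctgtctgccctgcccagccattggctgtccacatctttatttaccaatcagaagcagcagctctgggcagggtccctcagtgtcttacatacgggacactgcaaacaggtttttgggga
Mycn +14.6 kb, chr12:12934041-12934240: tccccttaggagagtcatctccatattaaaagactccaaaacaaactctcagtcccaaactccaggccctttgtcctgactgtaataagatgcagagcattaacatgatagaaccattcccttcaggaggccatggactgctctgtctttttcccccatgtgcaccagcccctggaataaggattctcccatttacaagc
Trim71 +37.1 kb, chr9:114436314-114436513: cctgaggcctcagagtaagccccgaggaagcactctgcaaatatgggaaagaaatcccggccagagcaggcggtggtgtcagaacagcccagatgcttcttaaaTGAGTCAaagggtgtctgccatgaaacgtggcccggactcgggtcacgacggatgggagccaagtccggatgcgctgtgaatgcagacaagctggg
The Trim71 place at +15.0 kb held the SOX letters AACAATG, the octamer on the minus strand and a KLF match, none overlapping another. Both octamer and SOX letters were found in 0.114% of the 173754 places outside promoters in windows of the same length. The place at +30.3 kb held a KLF match, and the place at +37.1 kb an AP-1 match. No match to any of the 6 was found in the windows of Sall1 -8.9 kb or Mycn +14.6 kb. Over the 10 places outside promoters that were gained and kept, 1 held the octamer (1.83% of all places outside promoters did), 1 SOX (4.39%), 3 KLF (9.33%), none the E-box (3.39%), 1 AP-1 (26.6%) and 1 ESRRB (4.29%). At these counts, 1 or 3 of 10 places describe the places and cannot be set apart from the shares over all places.

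The windows as a whole held the fewest regions in MEFs and the most in iPSCs. The 6 windows together had 14 regions in D0 cells, 32 in D3 cells, 44 in D6T- cells and 17 in D9T- cells. They had 37 regions in D12S+ cells, 38 in D16S+ cells and 63 in iPSCs, with 19 in D6 siH3.3 and 17 in D6 siNT. Over all protein-coding genes the mean per window ran the other way between the ends of the course, with 4.61 regions at D0 and 4.16 in iPSCs. All 6 genes had more regions in iPSCs than at D0, from 2 against 1 at Lin28b to 21 against 6 at Trim71, where 35.7% of all protein-coding genes did. The regions of the 9 libraries formed 80 places. Of these, 16 were absent at D0 and present at D12S+, D16S+ and in iPSCs, and each gene had at least 1 of them, as did 38.8% of all protein-coding genes. They made up 20% of the places, against 5.11% of the 211273 places of the genome. Only 3 places (3.75%) were present at D0 and absent from D12S+, D16S+ and iPSCs, against 21.3% of all places. Another 22 places (27.5%, against 6.29% of all places) were called in iPSCs alone, with a median of 13 tags and at most 22, so most stood close to the limit of 10 tags. The 16 gained places were called from D3 in 9 cases, from D6T- in 4 and from D12S+ in 3, and 8 of them were highest at D16S+ and 4 in iPSCs in CPM. Relative to the common places, 13 of the 16 were highest in iPSCs and 2 at D16S+. These counts only describe the places, since a call in each late library and none at D0 was the rule that picked them. On the scale of the common places, the weakest call possible was also higher in iPSCs (35.7%) than at D16S+ (21.4%) or D6T- (11.0%). The same counts over all such places of the genome were not made. Of the 16, 6 lay at promoters, 6 in gene bodies and 4 in the flanks, and 3 were also called in 1 or both siRNA libraries.

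**Figure D3:**
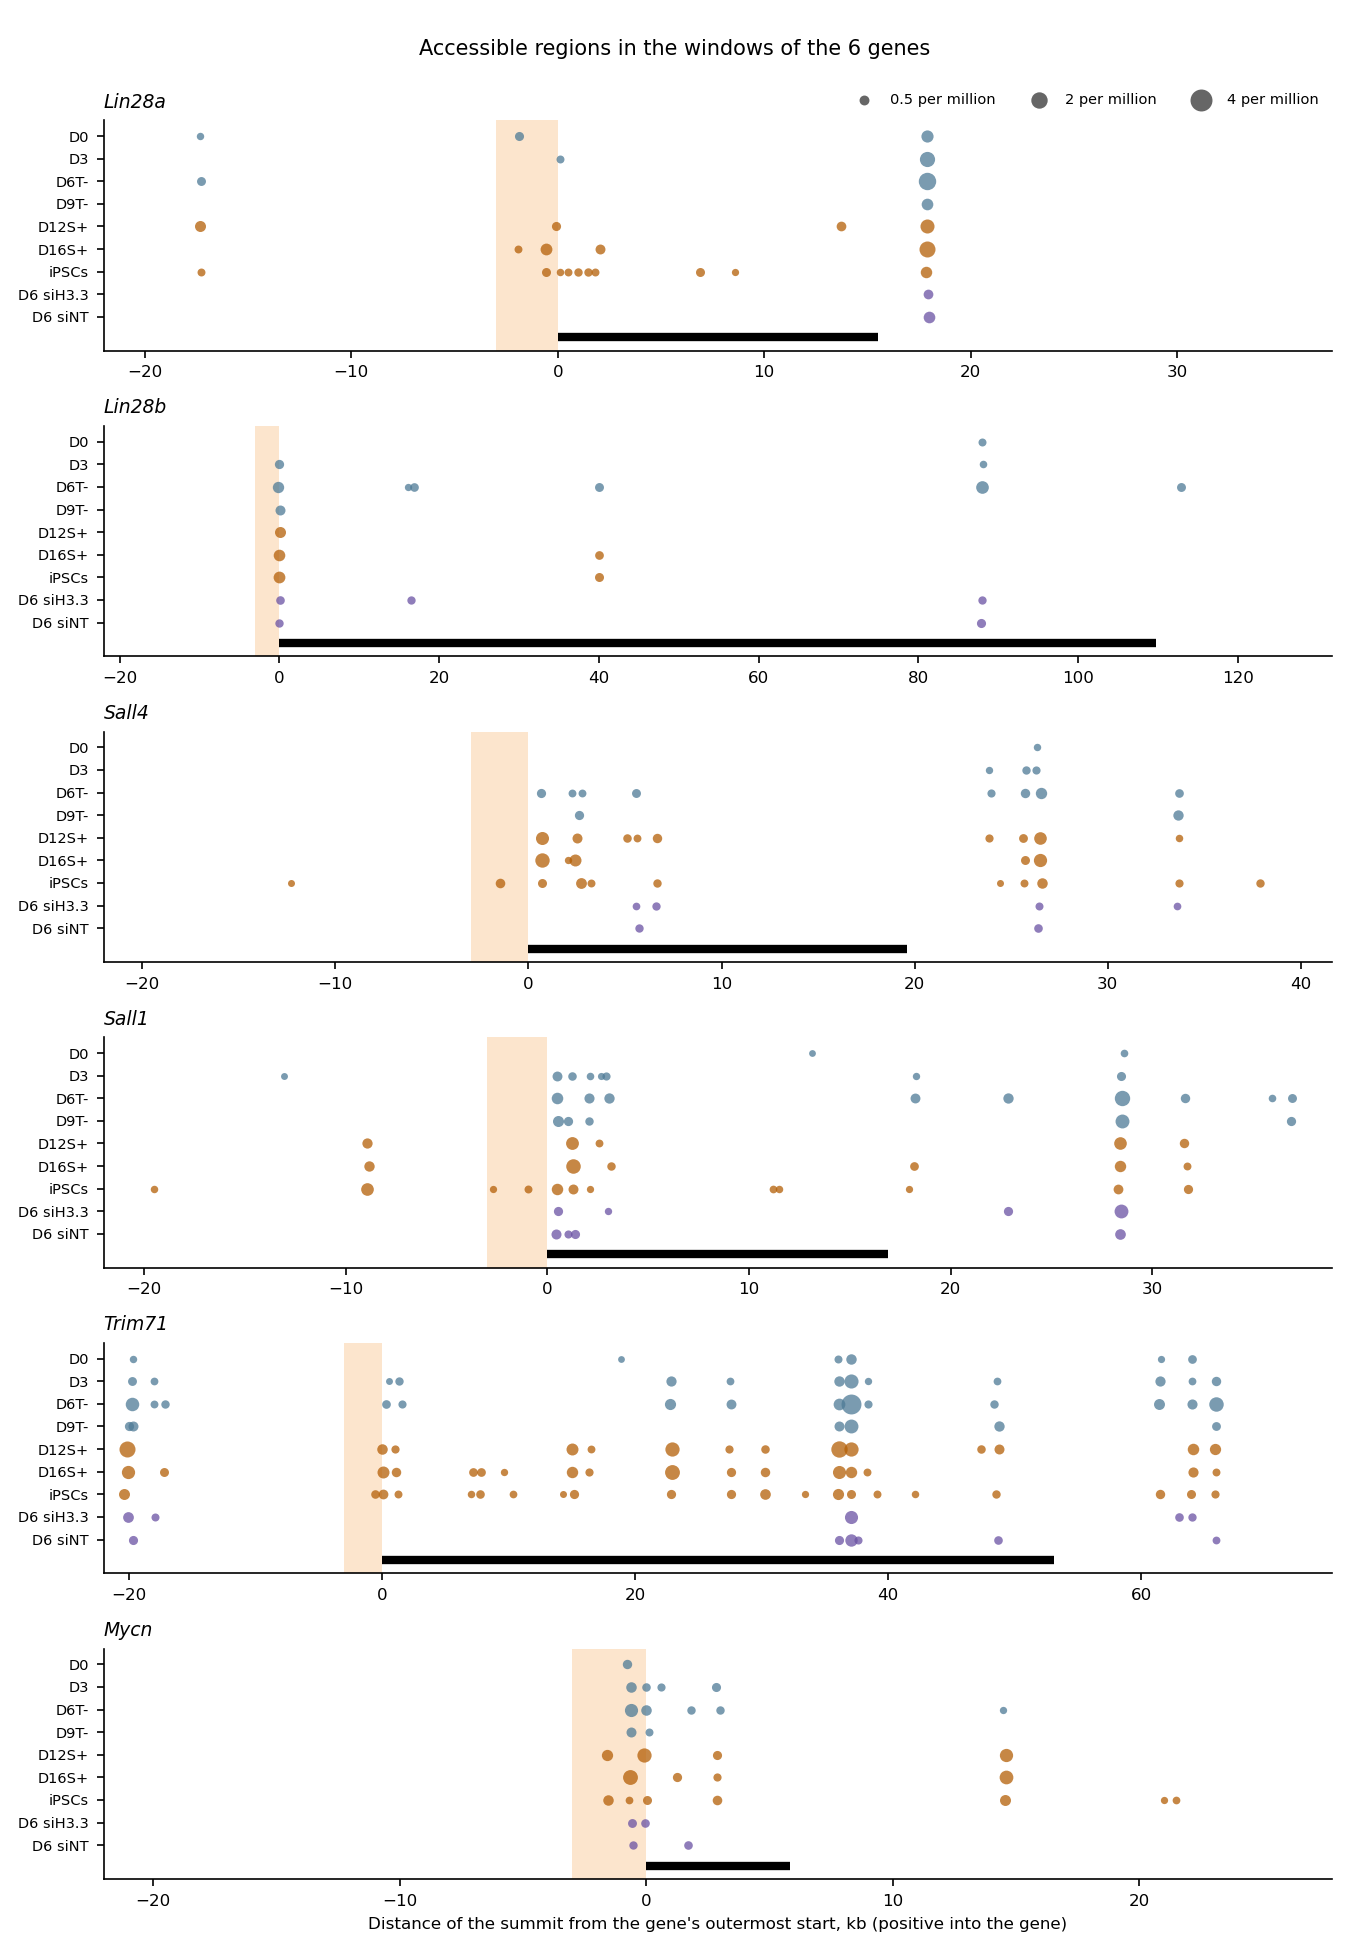
Accessible regions in the windows of the 6 genes, plotted by the distance of the summit from the outermost start in kb and by library; the area of a dot grows with the pileup in CPM. The black bar is the gene and the shaded band the 3 kb upstream of the outermost start. Regions called from D12S+ on, with none in D0 to D9T-, can be seen at -8.9 kb of Sall1 and at +15.0 and +30.3 kb of Trim71.

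**Figure D4:**
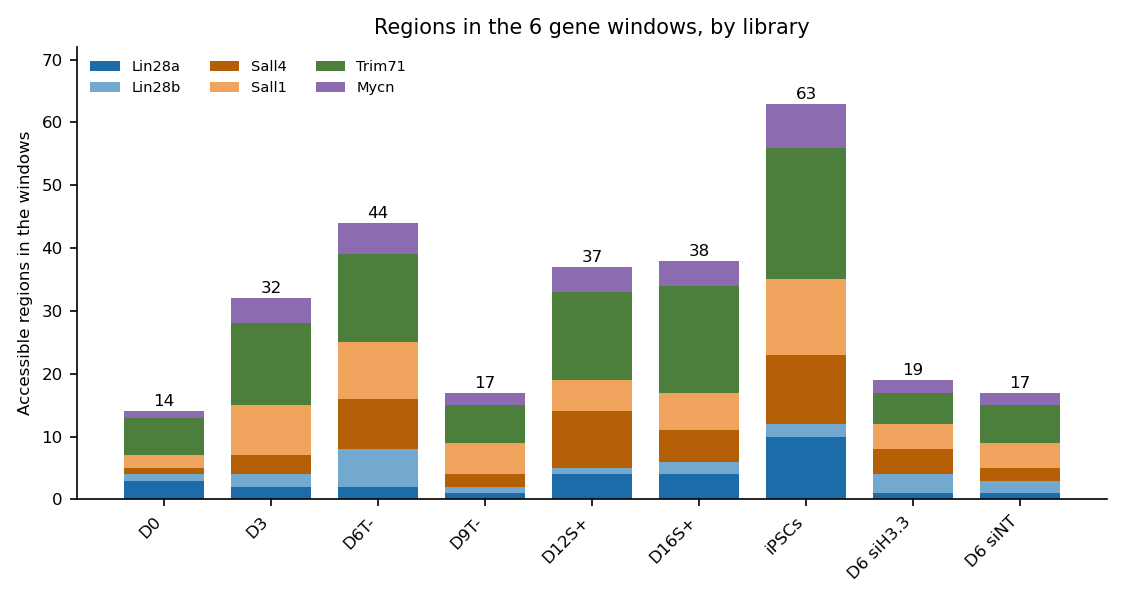
Number of accessible regions in the windows of the 6 genes in each library, stacked by gene, with the total above each bar. D0 has the lowest total (14) and iPSCs the highest (63).

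Between D0 and iPSCs, the promoter level was at least 2-fold higher in 3 of the 6 genes (Lin28b, Sall4 and Trim71), against 15.5% of the 15341 protein-coding genes with a region in either library. None was at most 1/2, against 2.26% of those genes. The bounds were at least 3.80 for Lin28b, 3.15 for Sall4 and 2.49 for Trim71, and 3.18, 2.64 and 2.09 relative to the common places. With D16S+ in place of iPSCs, 5 genes were at least 2-fold higher, but so were 61.6% of the 15220 genes with a region in either library, so that higher levels at D16S+ were shared by most promoters. From D16S+ to iPSCs the median ratio was 0.539 over the 6 genes and 0.555 over all genes with both regions.

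**Figure D5:**
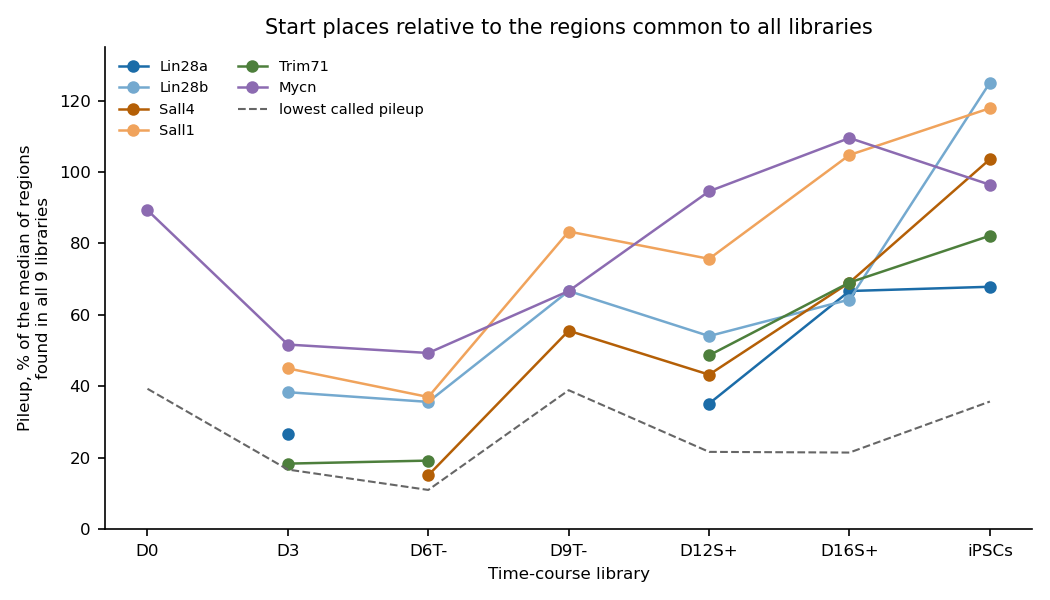
Level of the start places in the time course as a percentage of the median pileup over the places open in all 9 libraries; a gap is a library without a call, and the dashed line is the detection limit. All 5 genes called at D3 are higher in iPSCs than at D3, Mycn among them (51.7% and 96.4%), and the median itself was 60 tags at D3 and 28 in iPSCs. For Lin28a, Trim71 and Mycn, the D3 and iPSC levels belong to different summits of the place. Mycn, the only gene called at D0, stays between 49.3% and 110%.

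Between D6 siH3.3 and D6 siNT neither of the 2 genes with a promoter region differed by 2-fold. Lin28b had 12 tags in D6 siH3.3 (0.643 CPM) and 13 in D6 siNT (0.597), a ratio of 1.08 (0.449 to 2.56). Mycn had 13 tags in each (0.696 and 0.597 CPM), a ratio of 1.17 (0.498 to 2.73). The other 4 genes had no promoter region in either library. The start place of Sall1, which lies inside the gene in these libraries, had 14 and 20 tags, a ratio of 0.817 (0.382 to 1.70). These intervals allow a change of 2-fold in at least 1 direction, and 0 of the 2 genes measured was called in either direction, where 0.936% of 12929 genes were at least 2-fold higher and 0.905% at most 1/2. Over the windows, 22 places were called in either siRNA library and 10 in both, which is 45.5%, against 62.6% of the 52919 such places in the genome. Those called in 1 library only had at most 16 tags. Of the 10 shared places, the ratio ran from 0.667 at the Dhdds promoter to 1.78 (1.02 to 3.15) at +28.5 kb of Sall1 (35 against 23 tags), the only interval of the 10 that does not include equal levels. The late places of Trim71, Sall1 and Mycn were called in neither library.

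Among partners and targets of these genes, each list is set against the 15.5% of all genes that were at least 2-fold higher in iPSCs than at D0 and the 2.26% that were at most 1/2. Of 9 let-7 processing genes, all with a region at D0 or in iPSCs, 1 was at least 2-fold higher in iPSCs, Zcchc11 (3.18), which tails precursor let-7 together with Lin28a, and the lowest was Drosha (0.998). Of 10 let-7 targets, 1 was at least 2-fold higher, Igf2bp1 (2.22), and none at most 1/2, with Hmga2 the lowest at 0.563. Of 10 SALL relatives and NuRD subunits, 2 were at least 2-fold higher, Sall3 (at least 2.28, not called at D0) and the NuRD remodeller Chd4 (2.11), and the lowest was Mta2 (0.987). Of 9 MYC relatives and partners, none passed either bound, from 0.945 at Mlx to 1.95 at Mycl1. The medians of these 4 lists ran from 1.35 to 1.61, beside 1.26 over all genes with both regions. None of the genes in these lists was called between D6 siH3.3 and D6 siNT. Of 10 pluripotent markers, 8 were at least 2-fold higher in iPSCs, the highest being Utf1 (at least 4.45).

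The genes whose promoter levels ran most like those of each member over the 7 time-course libraries are given as a description, since 7 points that share depth and signal per tag give high correlations for many genes. For Sall4 they were Thsd7b (Pearson's r of log2 levels 0.994), Elf3 (0.993) and Gm5089 (0.991). For Trim71 they were Tbx1 (0.993), Sall4 (0.988) and Ttc29 (0.987), and Sall4 is itself among the 6 genes. A library without a promoter region entered at its lowest called pileup, as D0 and D3 did for both Sall4 and Trim71. For Sall1 they were Aftph (0.995), Nek5 (0.994) and Tbc1d24 (0.993), and for Mycn Slc16a9 (0.990), Cacnb4 (0.989) and Frg1 (0.989). For Lin28b they were Klhl34 (0.983), Hmgcll1 (0.981) and Bmp2 (0.975), and for Lin28a Scube3 (0.956), Grb7 (0.947) and Scnn1a (0.909). These correlations use the promoter levels, so that Lin28a enters at D0 with its -1.9 kb place, Sall1 in iPSCs with the weaker region at -1.0 kb, and Sall1 at D9T- as uncalled. With that limit, r was 0.066 between Lin28a and Lin28b and 0.961 between Sall1 and Mycn.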

How the data were processed

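ATAC-Seq regions of 9 libraries were used, 1 library per condition. Per the labels and the study's methods, reads were mapped to mm9 with STAR, filtered for duplicates with Picard and passed to MACS2 (version 2.1.0.20151222 per the file headers), without a control, without local background, with a q cutoff of 0.05 and with tags of 51 bp extended to 200 bp. No shift of tags towards the Tn5 cut sites is stated in the file headers, so that summits lie beside the cuts. The deposited pileup signal counts, at each summit, the extended tags that cover it and was not scaled. The deposited fold enrichment is that pileup over an even spread of tags, with a pseudocount of 1, and the deposited −log10 p and q values come from the same Poisson model of the authors' caller.

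From these, touching or overlapping peaks were joined, assigned to GENCODE genes of mm9 by an overlap of at least 1 bp and given as pileup per 1000000 total tags (CPM), with the totals of the file headers. Intervals are exact Poisson (levels) and exact conditional binomial (ratios) at 95%. Reads had no molecular identifiers, so that they cover counting error only. A library without a region was taken as below its lowest called pileup. A ratio of at least 2 or at most 1/2 was called. With 1 library per condition no test between conditions was made. Groups were taken from the sample labels. The 6 genes and the lists were chosen with earlier results of these data known. Named beside the 6 genes were the highest and lowest gene of each list, and for each of the 6 the 3 genes with the most similar promoter levels over the 7 time-course libraries (Pearson, genes called in at least 3 libraries and over 100 kb away). Alternatives were another promoter, flank, scaling, overlap and peak threshold, and regions outside promoters of other genes. Joining, assignment and ratios were tested on simulated data. Python 3.11.15, numpy 2.4.6, pandas 2.3.3, scipy 1.17.1 and matplotlib 3.10.9 were used.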

Additional observations from a re-analysis of the deposited data

How the results depend on the processing

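Under every alternative tried, each of the 6 genes had more regions in iPSCs than at D0, and no gene was called between D6 siH3.3 and D6 siNT. The totals depended on the setting. With flanks of 50 kb, D0 had 25 regions in the windows. With the 36708 strongest regions of each library, iPSCs had 36 and D0 5, and with a −log10 q of at least 5, iPSCs had 35 and D0 7. The number of promoters at least 2-fold higher in iPSCs than at D0 was 1 (Lin28b) with the strongest regions alone, where the bounds are set by the higher limit of D0, and 5 with D16S+ in place of iPSCs. It was 3 when scaled by the common places and 4 with promoters from 1 kb upstream to 100 bp downstream. Of the values of single genes, 20 stayed within the counting interval of the reported value (for a bound, that of its tags) and 8 did not. No ratio called in the report turned, but with promoters from 1 kb upstream to 100 bp downstream the uncalled ratios of iPSCs to D0 crossed 1, from 0.986 to at least 2.06 for Lin28a and from 1.29 to 0.907 for Mycn. With only regions of −log10 q of at least 5, Lin28b had no promoter region in the siRNA libraries and gave no ratio, and with the strongest regions alone Sall1 gave none for iPSCs over D0. A promoter call at all 6 genes in the late libraries also depended on the setting. With the outermost start only, Sall4 had no promoter region in D12S+ or D16S+ cells. Under either stricter peak threshold, Sall1 had none in iPSCs. No paired analysis was possible because each condition had 1 library. The weakest calls had 7 to 11 tags. As a share of the common median, this limit was higher at D0, D9T- and in the siRNA libraries than at D3 and D6T-. Absence is therefore less certain in the former.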
